A study of Mus musculus with 96 samples.

Results

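The livers of pregnant mice on an advancing light schedule were set against those of pregnant mice on a fixed schedule at ZT18 (zeitgeber time, with lights on at ZT0), the middle of the dark phase. The members are the libraries that the labels place with mothers at ZT18, which are 6 of the 96 libraries of the series. They comprise 3 libraries of shifted mothers and 3 of control mothers. Shifted mothers were C57BL/6J mice whose light cycle was moved forward by 8 h every 5 days, only while they were pregnant. Control mothers were C57BL/6J mice kept throughout on 12 h of light and 12 h of darkness. All 6 livers were from pregnant animals, and no allele, drug or diet is named for either group. Poly(A) RNA was sequenced in strand-specific libraries, and livers were also sampled at ZT0, ZT6 and ZT12, which gave 24 mother libraries. The sources used here state neither the day of gestation, nor how long after the last advance the livers were taken, nor whether replicates were separate animals, so p-values measure only the spread between these libraries. Each schedule came in a table of its own.

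The liver clock is a transcription loop in which the proteins of Arntl and Clock (or Npas2) switch on Per, Cry, Nr1d1 and Nr1d2, whose products repress the activators in turn, so that activator and repressor transcripts peak at opposite times of day. Factors such as Dbp, Tef and Nfil3 pass this timing on to metabolic genes. Adult hepatocytes rarely divide, but the mouse liver grows during pregnancy, and genes that load and drive the replication fork are transcribed at the entry into DNA synthesis.

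At ZT18 the clock genes of shifted mothers were far from those of control mothers, genes of DNA replication fell, and metallothioneins rose. Of 10351 genes tested, 355 differed at an adjusted p under 0.05 (3.43%), of which 110 were higher (1.06%) and 245 lower (2.37%) in shifted mothers. The test was limma's moderated test on log2(FPKM + 1) with Benjamini-Hochberg adjustment, and 2145 genes had an unadjusted p under 0.05. Fold changes and log2 changes below are on this FPKM + 1 scale, which understates the change of low genes, and levels are FPKM scaled between libraries. The median fold of the 355 genes was 1.63, and the median log2 change of all genes was 0.01. The size of the split between directions depended on the scaling: with values as deposited, 44 genes were higher and 798 lower, and the median log2 change of all genes moved to -0.15. Upper quartile scaling gave 89 higher and 244 lower. More genes were lower than higher with each of these scalings.

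These counts moved with single libraries. Shifted replicate 3 stood apart, with a mean correlation of 0.954 to the other shifted livers, the lowest of the 24 mother libraries, against 0.967 to 0.987 for the other 5 at ZT18. Without it 139 genes were called (22 higher and 117 lower). Without shifted replicate 1 the count was 540, and without control replicates 1, 2 and 3 it was 122, 132 and 149. Of the 48 called genes named by a rule, 18 kept the call in all of the 16 alternatives that tested them, among them Arntl, Npas2, Ciart, Nr1d2, Dbp, Tef, Coq10b, Ppp1r3c, Tubb2a, Tubb2b, Cdkn1a, Mcm3, Mcm5, Mcm6, Mcm7 and Prim1. Uhrf1 was tested in 12 of the 16 alternatives only. It drops below the filter when a control library of ZT18 is left out, and it does not reach the stricter filter of 5 FPKM. Of the other 30, 27 lost it when at least 1 of the 6 libraries was left out, and Mt1, Mt2 and G6pdx lost it only in a fit of the 6 libraries of ZT18 alone. Hepatocyte markers were at summed levels of 143072, 141659 and 144486 FPKM in shifted mothers, against 141909, 119515 and 132294 in control mothers. Of 11 measured markers of placenta, pancreas, muscle and fat, 7 were at 0 in all 6 libraries.

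Of 19 clock genes, 18 were tested, and 7 rose and 4 fell, where 1.06% of all genes rose and 2.37% fell (Bhlhe41 did not reach the level needed for the test). The 3 shifted and 3 control libraries did not overlap for 15 of the 18, with 9 higher and 6 lower, where 11.6% of all genes were higher and 13.4% lower without overlap. Without shifted replicate 3, and likewise without any 1 of the control replicates, 4 rose and 2 fell. Without shifted replicate 3, Per2, Per3, Cry1, Nr1d1 and Nfil3 were those whose calls ended, with log2 changes that kept their sign. The calls of Per2 and Nr1d1 ended in 11 and 12 of 16 alternatives.

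**Figure D1:**
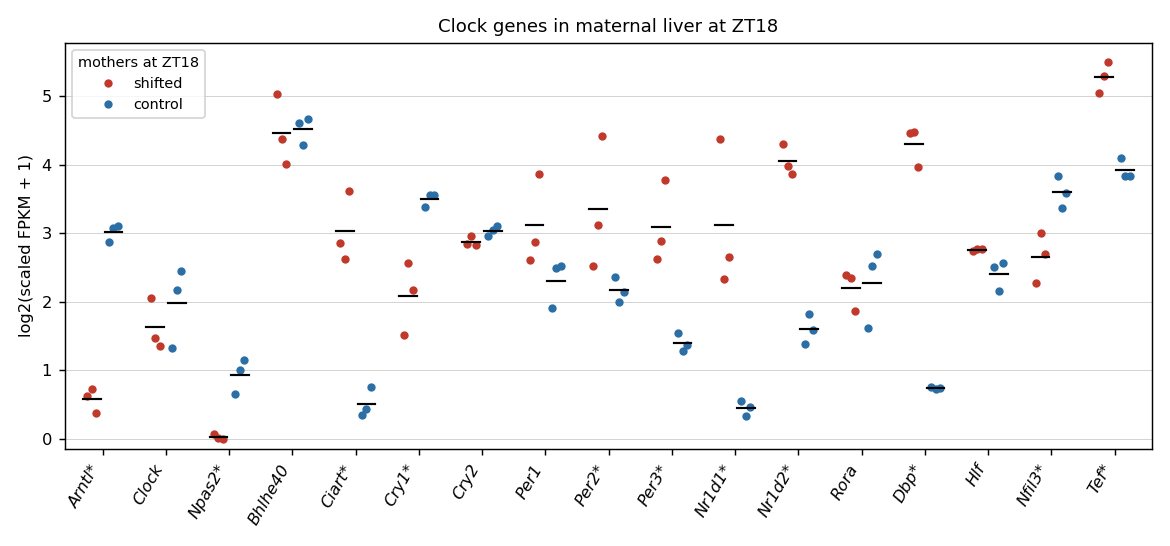
Levels of 17 clock genes at ZT18 as log2(scaled FPKM + 1), with 1 point for each library of shifted (red, left) and control (blue, right) mothers, bars at the means of 3 and a star where the adjusted p was under 0.05. Arntl, Npas2, Cry1 and Nfil3 lie lower in shifted mothers, and Ciart, Per2, Per3, Nr1d1, Nr1d2, Dbp and Tef higher.

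The activators were low in shifted mothers. Arntl (chr7:113207465-113314126, GRCm38), the gene of the activator that pairs with CLOCK, was at 0.549, 0.662 and 0.301 FPKM in shifted mothers, against 6.30, 7.45 and 7.56 FPKM in control mothers. The groups were far apart, and every shifted liver was under 1 FPKM. Arntl fell 5.4-fold (log2 change -2.43, SE 0.31, adjusted p = 8.77e-05). Npas2, which can take the place of CLOCK, was at 0.0492, 0.00612 and 0 FPKM in shifted livers and at 0.576, 0.998 and 1.23 FPKM in control livers, and fell by 0.91 on the log2 scale (adjusted p = 0.000358). Clock itself had a log2 change of -0.36 (adjusted p = 0.496), and its groups overlapped.

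Among the repressors, the PER-family genes were high and Cry1 low. Ciart, which encodes a repressor of the CLOCK and BMAL activator pair, was at 6.23, 5.15 and 11.2 FPKM in shifted mothers, against 0.272, 0.353 and 0.690 FPKM in control mothers (log2 change 2.52, adjusted p = 0.00035). Each shifted liver was above every control liver by a wide margin. Per3 rose by 1.70 on the log2 scale (adjusted p = 0.0369) and Per2 by 1.18 (adjusted p = 0.0487), with Per2 at 4.73, 7.64 and 20.3 FPKM in shifted livers and at 4.14, 2.99 and 3.41 FPKM in control livers. The highest Per1, Per2 and Per3 values were all in shifted replicate 3. Per1 did not pass (log2 change 0.81, adjusted p = 0.108), although its groups did not overlap. Cry1, the cryptochrome whose transcript peaks latest of the repressors in mouse liver, was at 1.86, 4.93 and 3.49 FPKM in shifted mothers, against 9.37, 10.7 and 10.8 FPKM in control mothers, and fell by 1.41 on the log2 scale (adjusted p = 0.0175). Cry2 (-0.16, adjusted p = 0.488) and Bhlhe40 (-0.06, adjusted p = 0.949) did not pass.

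The REV-ERB receptor genes, repressors of Arntl, were high. Nr1d2 was at 18.8, 14.8 and 13.6 FPKM in shifted mothers, against 1.62, 2.53 and 2.02 FPKM in control mothers (log2 change 2.45, SE 0.43, adjusted p = 0.0024). Nr1d1 was at 19.6, 4.02 and 5.26 FPKM in shifted mothers, against 0.465, 0.257 and 0.385 FPKM in control mothers (log2 change 2.66, adjusted p = 0.0493). Shifted replicate 1 held by far the highest Nr1d1 level, and the groups did not overlap. Rora, whose receptor activates Arntl, did not pass, with a log2 change of -0.08 (adjusted p = 0.89).

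The output factors Dbp and Tef rose, and Nfil3 fell. Dbp (chr7:45705088-45710203, GRCm38), an activator at D-box elements, was at 21.0, 21.1 and 14.5 FPKM in shifted mothers, against 0.682, 0.657 and 0.675 FPKM in control mothers. Its 3 control livers were nearly identical and far below all shifted livers. Dbp rose 11.8-fold (log2 change 3.55, SE 0.70, adjusted p = 0.00624), the largest change of a clock gene. Tef, a relative of Dbp, was at 31.8, 38.1 and 44.3 FPKM in shifted livers and at 16.1, 13.2 and 13.2 FPKM in control livers (log2 change 1.36, adjusted p = 0.00333). Nfil3, which competes with these factors for D-boxes and represses, was lower by 0.94 on the log2 scale (adjusted p = 0.0394). Hlf did not pass (0.35, adjusted p = 0.2).

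In their clock genes the shifted livers at ZT18 lay nearest to control livers of ZT6 or ZT12, a description made after the data were seen. Over the 18 clock genes, shifted replicate 2 differed from the control mean at ZT12 by 0.201 on average (absolute log2 difference) and from the control mean at ZT18 by 1.15. Shifted replicate 3 differed by 0.468 from ZT12 and by 1.5 from ZT18. Shifted replicate 1 was about as near to ZT6 (0.521) as to ZT12 (0.542), and 1.39 from ZT18. Control livers at ZT18 lay 0.191 to 0.317 from the mean of the other control livers of that time. Over all 10351 genes, shifted replicate 1 was nearest to control livers at ZT0 (0.206, against 0.219 at ZT12 and 0.25 at ZT18), and shifted replicates 2 and 3 to those at ZT12 (0.181 and 0.399). By gene, shifted livers at ZT18 differed from control livers at ZT12 in 0 of 10351 genes by limma (0%, with 776 at an unadjusted p under 0.05), which does not show that the groups are alike. Against control livers at ZT6, 21 genes were called (0.203%), with 7 called without shifted replicate 3 and 259 without shifted replicate 1. Against control livers at ZT0, 189 were called (1.83%), with 572, 76 and 59 called without shifted replicates 1, 2 and 3.

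**Figure D2:**
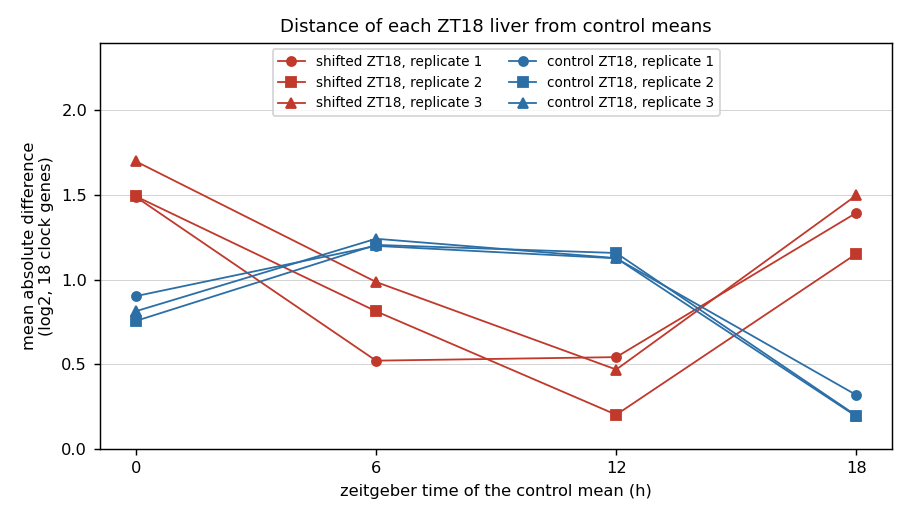
Mean absolute log2 difference over 18 clock genes between each ZT18 liver (red, shifted; blue, control; 1 line per library) and the mean of control livers at ZT0, ZT6, ZT12 and ZT18, where a control liver at ZT18 is set against the other 2 of its group. Shifted replicates 2 and 3 are lowest at ZT12 (0.201 and 0.468) and shifted replicate 1 at ZT6 (0.521), whereas control livers are lowest at ZT18.

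Arntl was high at other times of day in the 2 groups. In shifted mothers it averaged 2.26 ± 2.44, 8.19 ± 1.54, 0.319 ± 0.0509 and 0.504 ± 0.185 FPKM at ZT0, ZT6, ZT12 and ZT18 (SD, n = 3 each), against 6.95 ± 0.479, 1.35 ± 0.742, 0.744 ± 0.217 and 7.10 ± 0.695 FPKM in control mothers. The high time in shifted livers was thus ZT6, and ZT18 lay in the low part of their profile. Its difference at ZT18 was lower by 2.46 (log2) than the mean of its differences at the other 3 times (adjusted p = 0.000742).

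Promoters of the clock genes Ciart and Per3 and of Coq10b, a clock-controlled gene described below, are shown for motifs of the clock loop, and were picked for their matches among those searched. Windows of 300 bases span the annotated start (RefSeq, GRCm38.p6), written 5′ to 3′ on the strand of the gene. Motifs were searched on both strands and are in capitals: the E-box CACGTG, bound by the CLOCK and BMAL pair, and the D-box TTATGTAA or TTACGTAA, bound by Dbp, Tef, Hlf and Nfil3 proteins. An E-box was present in 7.15% and a D-box in 1.06% of 32851 windows. Ciart held 3 E-boxes (chr3:95882179-95882478, minus strand), where 0.594% of windows held 2 or more. Per3 held 2 D-boxes (chr4:151044616-151044915, minus strand), where 0.0244% held 2 or more. Coq10b held 1 E-box and 1 D-box (chr1:55052520-55052819, plus strand). An E-box lay also in windows of Tef, Per1, Cry1 and Ppp1r3c, of which Cry1 and Ppp1r3c fell. No E-box lay in those of Arntl, Npas2, Nfil3, Dbp, Nr1d1, Nr1d2, Per3 or Usp2, which says only that these letters are absent there, and Per2 is not in the table.
Ciart promoter: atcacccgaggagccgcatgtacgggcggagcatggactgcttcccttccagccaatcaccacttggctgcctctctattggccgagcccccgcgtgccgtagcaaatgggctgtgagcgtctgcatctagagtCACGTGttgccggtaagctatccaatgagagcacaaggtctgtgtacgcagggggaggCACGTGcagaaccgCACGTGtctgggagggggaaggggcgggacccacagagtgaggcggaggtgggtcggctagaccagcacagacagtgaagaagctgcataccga
Per3 promoter: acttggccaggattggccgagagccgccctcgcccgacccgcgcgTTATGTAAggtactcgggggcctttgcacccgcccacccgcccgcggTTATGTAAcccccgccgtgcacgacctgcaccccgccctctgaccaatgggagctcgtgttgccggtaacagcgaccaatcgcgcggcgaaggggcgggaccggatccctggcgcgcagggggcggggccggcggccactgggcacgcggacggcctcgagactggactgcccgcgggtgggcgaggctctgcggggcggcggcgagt
Coq10b promoter: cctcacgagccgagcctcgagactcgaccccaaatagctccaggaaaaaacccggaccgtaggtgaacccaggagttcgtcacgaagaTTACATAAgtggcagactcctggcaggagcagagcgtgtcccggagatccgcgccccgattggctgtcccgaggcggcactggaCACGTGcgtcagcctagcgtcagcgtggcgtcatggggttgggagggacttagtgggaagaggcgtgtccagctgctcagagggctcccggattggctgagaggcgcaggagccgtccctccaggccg

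Among 26 tested liver genes known to follow the clock (28 listed), 4 rose and 4 fell, where 1.06% of all genes rose and 2.37% fell. Without overlap, 8 of the 26 were higher and 5 lower, where 11.6% and 13.4% of all genes were, so that the count of lower ones was near the share over all genes. Coq10b, which encodes a coenzyme Q chaperone, was at 20.6, 32.2 and 35.0 FPKM in shifted mothers, against 7.86, 7.18 and 9.20 FPKM in control mothers (log2 change 1.71, SE 0.23, adjusted p = 0.00013). Usp2, a ubiquitin protease, rose by 1.67 (adjusted p = 0.00722), Por, the electron donor of liver cytochromes P450, by 0.98 (adjusted p = 0.031), and Gne, an enzyme of sialic acid synthesis, by 0.66 (adjusted p = 0.0348). Ppp1r3c, which brings protein phosphatase to glycogen, was at 14.4, 4.56 and 4.11 FPKM in shifted mothers, against 43.8, 54.9 and 62.1 FPKM in control mothers. Its groups were well apart, with shifted replicate 1 the highest of its group, and it fell 7.12-fold (log2 change -2.83, adjusted p = 0.00333). Tubb2a, a beta-tubulin gene, was at 29.4, 12.5 and 8.71 FPKM in shifted livers and at 105, 72.3 and 114 FPKM in control livers (log2 change -2.60, adjusted p = 0.00332). Tubb2b, which is not in the list and is a near copy of Tubb2a with which it could share reads, fell by 2.22 (adjusted p = 0.00118). Leo1, a subunit of the PAF elongation complex (-0.76, adjusted p = 0.0313), and Fbxo44, an F-box protein (-0.44, adjusted p = 0.0454), also fell and are named to complete the count. Fbxo44 was low, at means of 0.615 FPKM in shifted and 1.18 FPKM in control livers, and its call ended in 10 of 15 alternatives. Those of Leo1 and Gne each ended in 6 of 16. Without shifted replicate 3 the list had 1 rise and 3 falls, and the adjusted p of Usp2 was then 0.0536.

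Genes of DNA replication had some of the smallest p-values at ZT18. Of 23 listed genes of replication licensing and S phase, 20 were tested, and 16 fell while 0 rose, where 2.37% of all genes fell. Their median log2 change was -1.46, against 0.01 over all genes. Orc1, Cdc6 and Ccne2 stayed below the level needed for the test. Part of this count was set by the filter, since Ccne1, Cdc45, Chaf1a, Gins2, Mcm5 and Uhrf1 passed it only through libraries of ZT18, where control livers are high. With genes chosen by the 18 libraries of the other times, an alternative added after the data were seen, 11 of 14 fell (194 of 10198 over all genes), and with no filter 18 of 23 fell. Without shifted replicate 3, 15 fell, and in a fit of only the 6 libraries of ZT18, 15 of 19 fell. The count was as low as 5 where genes needed an FPKM of 5, since most of these genes are below that level.

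**Figure D3:**
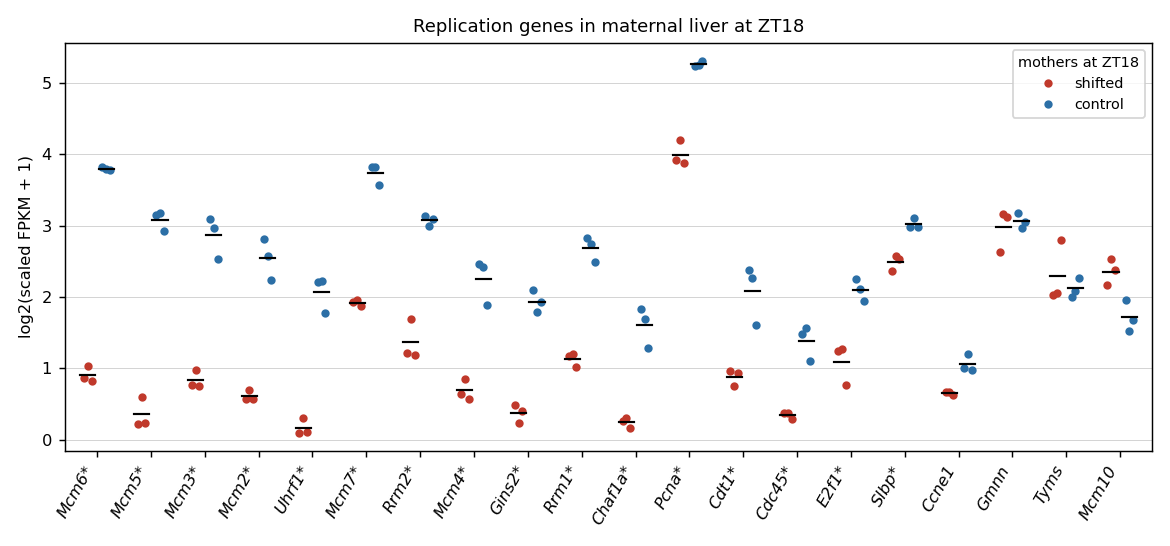
Levels of the 20 tested replication genes at ZT18 as log2(scaled FPKM + 1), with 1 point for each library of shifted (red, left) and control (blue, right) mothers, bars at the means of 3 and a star where the adjusted p was under 0.05, in order of log2 change. The 16 starred genes lie lower in all 3 shifted livers, and Gmnn, Tyms, Mcm10 and Ccne1 did not pass.

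The helicase that opens the replication fork is a ring of the subunits Mcm2 to Mcm7, and 6 of 6 subunit genes fell, by log2 changes of -2.89 to -1.56. Mcm6 (chr1:128331590-128359664, GRCm38) was at 0.815, 1.05 and 0.772 FPKM in shifted mothers, against 13.1, 12.9 and 12.8 FPKM in control mothers. The 3 livers of each group nearly coincided, with a wide gap between groups, and Mcm6 fell 7.43-fold (log2 change -2.89, SE 0.29, adjusted p = 4.52e-06). Mcm5 was at 0.171, 0.516 and 0.183 FPKM in shifted livers and at 7.85, 8.06 and 6.64 FPKM in control livers (log2 change -2.73, adjusted p = 2.06e-06). Mcm7 was at 2.82, 2.88 and 2.66 FPKM in shifted livers, against 13.1, 13.2 and 10.9 FPKM in control livers (log2 change -1.82, SE 0.16, adjusted p = 2.06e-06). Mcm3 was at 0.707, 0.967 and 0.679 FPKM in shifted livers and at 7.55, 6.86 and 4.78 FPKM in control livers (log2 change -2.04, adjusted p = 1.35e-05). Control replicate 3 was the lowest control liver for Mcm2, Mcm3, Mcm4, Mcm5, Mcm6 and Mcm7. Mcm2 and Mcm4, added after their values were seen to complete the ring, fell by 1.93 and 1.56 on the log2 scale (adjusted p = 1.47e-05 and 8.21e-05).

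Factors that act with the helicase fell as well. These genes other than Uhrf1 and Prim1 were named after their values were seen. Cdc45 and Gins2, which join MCM in the active helicase, fell by 1.03 and 1.56 on the log2 scale. Pcna, the sliding clamp of the polymerases, was at 14.1, 17.3 and 13.7 FPKM in shifted mothers, against 36.9, 37.0 and 38.5 FPKM in control mothers, and fell 2.41-fold (adjusted p = 8.1e-05). Rrm1 and Rrm2, the subunits of ribonucleotide reductase, fell by 1.56 and 1.71. Chaf1a, which places histones on new DNA, fell by 1.36 (adjusted p = 7.73e-06). Uhrf1, needed to copy DNA methylation at the fork, was at 0.0635, 0.234 and 0.0822 FPKM in shifted livers, against 3.63, 3.67 and 2.44 FPKM in control livers (log2 change -1.90, adjusted p = 2.06e-06). Outside the list, the primase gene Prim1 fell by 1.73 (adjusted p = 4.06e-06), with all shifted livers below all control livers.

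The other 4 tested members did not pass. Gmnn, the inhibitor of MCM loading, was at 5.22, 7.95 and 7.74 FPKM in shifted livers and at 8.10, 6.83 and 7.30 FPKM in control livers. Tyms, which makes thymidylate, had a log2 change of 0.17, and Mcm10, a helicase cofactor that is no ring subunit, one of 0.63 (adjusted p = 0.174). Ccne1, a cyclin of S-phase entry, had one of -0.41 (adjusted p = 0.121).

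Promoters of Mcm3, Mcm5, Mcm6 and Mcm7 are shown because the E2F motif, through which genes of S phase are switched on, recurs in them. In RefSeq windows of the same extent and build, the letters TTTCCCGC, TTTCGCGC, TTTGCCGC and TTTGGCGC were searched on both strands and are in capitals. At least 1 match was present in 2.26% and at least 2 in 0.0974% of 32851 windows. Mcm3 (chr1:20820263-20820562, minus strand), Mcm5 (chr8:75109259-75109558, plus strand) and Mcm7 (chr5:138171834-138172133, minus strand) held 2 matches and Mcm6 (chr1:128359656-128359955, minus strand) 3, with overlapping matches on opposite strands in Mcm5 and Mcm6. Mcm2, Pcna, Rrm1, Rrm2 and Prim1 windows had 0, Mcm4 is not in the table, and a second Mcm7 window had 0. Uhrf1 had 0 in its first window and 1 in its second. A match describes these letters and shows no bound factor.
Mcm3 promoter: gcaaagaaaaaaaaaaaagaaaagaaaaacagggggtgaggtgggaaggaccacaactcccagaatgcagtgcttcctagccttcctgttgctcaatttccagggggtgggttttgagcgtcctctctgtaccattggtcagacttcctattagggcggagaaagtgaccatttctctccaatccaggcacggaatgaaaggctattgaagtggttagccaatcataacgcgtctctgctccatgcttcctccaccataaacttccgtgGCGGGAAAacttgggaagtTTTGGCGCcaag
Mcm5 promoter: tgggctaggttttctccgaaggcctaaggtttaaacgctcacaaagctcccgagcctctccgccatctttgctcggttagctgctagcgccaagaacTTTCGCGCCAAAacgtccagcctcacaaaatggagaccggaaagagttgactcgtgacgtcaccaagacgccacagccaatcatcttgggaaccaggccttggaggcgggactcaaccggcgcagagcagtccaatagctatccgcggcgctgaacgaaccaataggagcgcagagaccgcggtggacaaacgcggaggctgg
Mcm6 promoter: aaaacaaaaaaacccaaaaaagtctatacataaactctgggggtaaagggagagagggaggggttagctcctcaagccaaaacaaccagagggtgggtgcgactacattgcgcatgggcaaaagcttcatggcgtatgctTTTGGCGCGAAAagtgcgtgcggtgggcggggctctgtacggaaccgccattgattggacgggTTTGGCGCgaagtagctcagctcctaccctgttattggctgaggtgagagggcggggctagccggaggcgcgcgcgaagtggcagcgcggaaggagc
Mcm7 promoter: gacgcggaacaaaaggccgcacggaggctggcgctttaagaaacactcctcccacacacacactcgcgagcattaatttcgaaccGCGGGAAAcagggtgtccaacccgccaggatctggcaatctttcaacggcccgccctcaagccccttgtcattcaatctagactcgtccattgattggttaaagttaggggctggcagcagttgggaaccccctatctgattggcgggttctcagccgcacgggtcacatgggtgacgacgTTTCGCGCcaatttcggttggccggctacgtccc

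The replication genes differed between schedules at ZT18 by another amount than at the other times. Of the 20 tested, 15 were lower at ZT18 by the test against the mean of the differences at ZT0, ZT6 and ZT12, where 0.763% of all genes were lower, 0.145% higher and 0.908% either way. Part of this count was also set by the filter. Cdc45, Chaf1a, Gins2, Mcm5 and Uhrf1 are among the 15 and passed it only through libraries of ZT18, where control livers are high. No count of this contrast on genes chosen by the other times is given here. Mcm6 averaged 1.31 ± 0.691, 1.35 ± 0.348, 1.64 ± 1.15 and 0.880 ± 0.151 FPKM at ZT0, ZT6, ZT12 and ZT18 in shifted mothers (SD, n = 3 each), against 1.40 ± 0.824, 1.52 ± 0.641, 1.85 ± 0.853 and 12.9 ± 0.193 FPKM in control mothers. The high level was thus seen in control livers at ZT18, and shifted livers were low at each of the 4 sampled times. For Mcm6 the difference at ZT18 was lower than at the other times by 2.80 on the log2 scale (adjusted p = 9.11e-05), and for Mcm5 by 2.60 (adjusted p = 4.31e-05). Whether shifted livers were high between the sampled times was not tested.

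**Figure D4:**
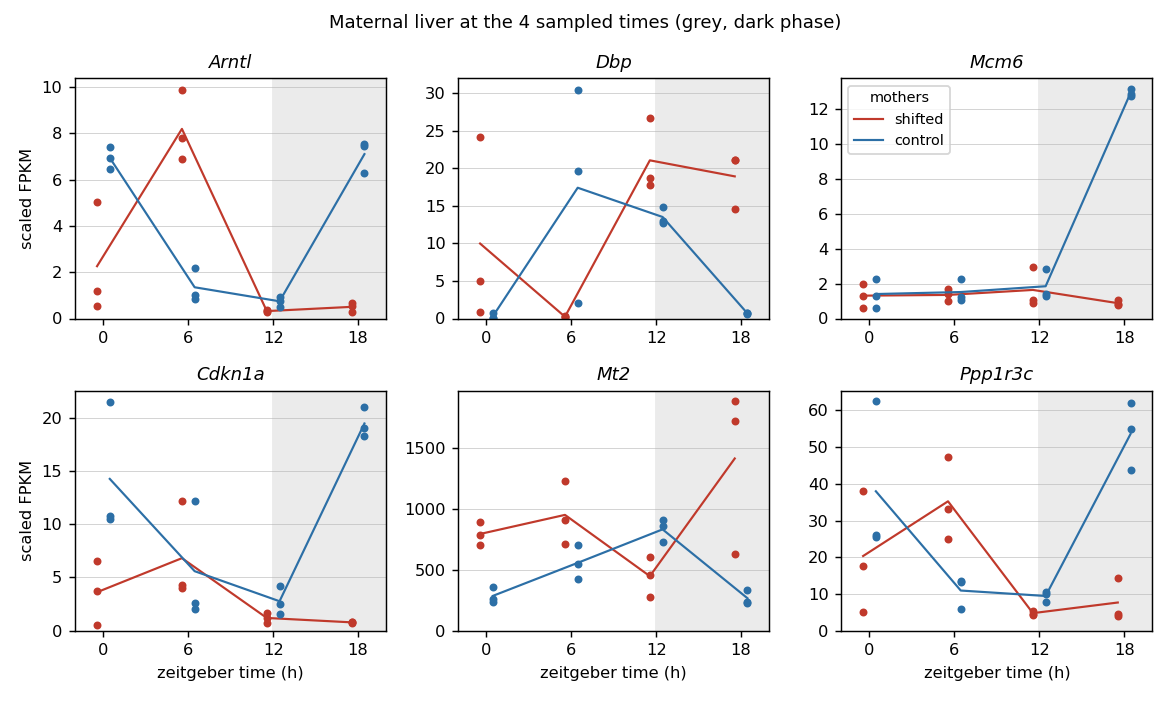
Scaled FPKM of 6 genes at ZT0, ZT6, ZT12 and ZT18, with 1 point for each library of shifted (red, left) and control (blue, right) mothers, lines through the means of 3 and the dark phase in grey. Mcm6 is high (12.9 FPKM on average) in control livers at ZT18 and low in shifted livers at every time, whereas Arntl is high at ZT6 in shifted and at ZT18 and ZT0 in control livers.

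Mitosis genes were lower with less certainty. Of 16 listed, 8 were tested and 3 fell, where 2.37% of all genes fell. These were Top2a, which untangles DNA (-1.0, adjusted p = 0.0135), Cdk1, the kinase that starts mitosis (-1.17, adjusted p = 0.0175), and Aurka, a spindle kinase (-0.80, adjusted p = 0.033). The 8 tested were lower without overlap, where 13.4% of all genes were, at low levels in both groups. Of the 8, 2 passed the filter only through libraries of ZT18, among them Top2a. Birc5 and Cdc20 had log2 changes of -1.19 and -1.23 and did not pass (adjusted p = 0.0986 and 0.0852). Without shifted replicate 3, or without control replicate 1, 1 of the 8 fell, and without control replicates 2 or 3, 0 did. In a fit of the 6 libraries of ZT18 alone 5 of 6 tested fell.

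Cdkn1a (chr17:29090976-29100727, GRCm38), which encodes the cyclin-dependent kinase inhibitor p21, a brake on the cell cycle, changed in the same direction as the replication genes. It was at 0.814, 0.809 and 0.749 FPKM in shifted mothers, against 18.3, 19.1 and 21.0 FPKM in control mothers. Every shifted liver was below 1 FPKM and the groups were far apart. Cdkn1a fell 11.4-fold (log2 change -3.51, SE 0.53, adjusted p = 0.000508), the largest fall among the called named genes with a group mean of at least 5 FPKM. It was also high in control livers at ZT0 (14.2 ± 6.26 FPKM, n = 3), where shifted livers averaged 3.62 ± 3.0 FPKM. It was the only 1 of 17 tested cell cycle gatekeeper genes (cyclins D, inhibitors, Gadd45 and Btg genes) that passed at ZT18.

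Summed levels of endothelial and macrophage markers were lower in shifted livers, and those of erythroid markers higher, with few single markers called. Of 11 endothelial markers, 2 fell, where 2.37% of all genes fell: Cdh5, the cadherin of endothelial junctions, at 2.58, 2.35 and 1.67 FPKM in shifted livers and 3.90, 3.56 and 4.43 FPKM in control livers (adjusted p = 0.0132), and Clec4g, a lectin of the sinusoids, at 22.2, 14.6 and 18.4 FPKM in shifted livers and 32.3, 29.2 and 30.5 FPKM in control livers (adjusted p = 0.0221). Summed over the 11, the endothelial level was 57.6, 49.2 and 56.0 FPKM in shifted livers, against 79.0, 78.2 and 83.9 FPKM in control livers, and 7 of 11 were lower without overlap, where 13.4% of all genes were. Of 12 macrophage markers, 1 fell, Timd4, a receptor of Kupffer cells (-0.82, adjusted p = 0.0485), and 12 of 12 were lower, 6 without overlap. Their sum was 192, 84.7 and 67.0 FPKM in shifted livers, against 198, 191 and 220 FPKM in control livers, so that shifted replicate 1 was at the level of control livers. Without shifted replicate 3, 0 endothelial and 0 macrophage markers were called, whereas without shifted replicate 1, 2 endothelial and 10 of 12 macrophage markers fell. Stellate and matrix markers summed to 87.4 to 99.0 FPKM in shifted livers and to 75.1 to 96.2 FPKM in control livers. Erythroid markers summed to 26.2, 19.0 and 15.5 FPKM in shifted livers, against 9.41, 11.6 and 9.35 FPKM in control livers. Neutrophil markers summed to 11.4, 24.4 and 7.40 FPKM in shifted livers, against 6.59, 5.28 and 7.39 FPKM in control livers, and lymphocyte markers to 3.82, 8.15 and 3.09 FPKM, against 2.45, 2.65 and 2.89 FPKM. The groups did not overlap for these 3 sums, with the neutrophil ranges nearly touching, and 0 of the 6 tested members of these 3 lists passed. Many members were near the floor: 2 of 5 erythroid, 3 of 7 neutrophil and 7 of 11 lymphocyte markers were under 1 FPKM in all 6 libraries. The 1 tested lymphocyte marker, Cd79b, passed the filter only through libraries of ZT18. In bulk liver, fewer cells of a type and less RNA per cell cannot be told apart. The part of these cells in the replication result was not tested.

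Metallothioneins, which bind zinc and copper and respond to glucocorticoids and metals, were high in shifted mothers. Mt2 (chr8:94172664-94173568, GRCm38) was at 632, 1730 and 1892 FPKM in shifted mothers, against 228, 241 and 335 FPKM in control mothers, and rose 4.81-fold (log2 change 2.27, SE 0.34, adjusted p = 0.000574). Its neighbour Mt1 was at 793, 2584 and 2938 FPKM in shifted livers, against 394, 340 and 556 FPKM in control livers (log2 change 2.11, adjusted p = 0.00333). Shifted replicate 1 was the lowest of its group for both genes, though still above every control liver. In a fit of the 6 libraries of ZT18 alone neither passed (adjusted p up to 0.114). Of 15 listed glucocorticoid targets, Mt1 and Mt2 rose and Cdkn1a fell, where 1.06% of all genes rose and 2.37% fell. The other 12 did not pass.

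The Mt2 promoter is shown for matches to the metal response element, the site of the zinc-sensing factor MTF-1. The letters TGCACNC and TGCGCNC were searched on both strands, in the same RefSeq windows. They gave 4 matches in Mt2 (chr8:94172368-94172667, plus strand) and 3 in Mt1, where 25.7% of windows held at least 1 and 7.11% at least 2, so that this short motif is common. The windows of Dbp and Per3 held as many, with 4 and 3, and a match shows no bound factor.
Mt2 promoter: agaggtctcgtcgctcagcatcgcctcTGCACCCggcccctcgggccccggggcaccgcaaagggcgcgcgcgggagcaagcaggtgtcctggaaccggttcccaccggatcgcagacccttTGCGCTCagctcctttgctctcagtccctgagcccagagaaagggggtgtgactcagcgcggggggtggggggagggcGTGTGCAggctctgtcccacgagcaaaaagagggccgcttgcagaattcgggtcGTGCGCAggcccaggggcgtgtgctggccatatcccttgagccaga

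Other large rises and falls were in genes outside the clock and replication lists. Crybb3, a lens crystallin gene, was at 23.3, 12.5 and 29.2 FPKM in shifted livers and at 1.92, 3.26 and 4.08 FPKM in control livers (log2 change 2.43, adjusted p = 0.0413). Sult3a1, a sulfotransferase whose reads could be shared with close relatives, rose by 2.34 (adjusted p = 0.0443) and Gpcpd1, which cleaves glycerophosphocholine, by 1.65 (adjusted p = 0.042). Eva1a, a regulator of autophagy, was at 38.5, 35.2 and 44.5 FPKM in shifted livers, against 21.3, 19.8 and 28.3 FPKM in control livers (log2 change 0.76, adjusted p = 0.00832). Among the falls, Rnf125, a ubiquitin ligase gene, had 13.5, 8.93 and 1.36 FPKM in shifted livers and 35.6, 31.0 and 44.4 FPKM in control livers (log2 change -2.43, adjusted p = 0.0485). Hist1h1c, a linker histone gene, fell by 2.0 (adjusted p = 0.0108). Sult3a1 and Por were the 2 of 28 genes of drug metabolism that rose, where 1.06% of all genes rose. Without shifted replicate 3, 0 of the 28 were called. The calls of Crybb3, Sult3a1, Gpcpd1 and Rnf125 ended in 9, 10, 10 and 10 of 16 alternatives, and that of Por in 6.

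Metabolic lists held few called genes, mostly 1 a list, where 1.06% of all genes rose and 2.37% fell. Such single calls say little of a list. Without overlap, 11.6% of all genes were higher and 13.4% lower. In bile acid synthesis and transport, 1 of 19 fell, Cyp8b1, the sterol hydroxylase needed for cholic acid, at 48.5, 37.3 and 53.0 FPKM in shifted mothers, against 142, 103 and 133 FPKM in control mothers (log2 change -1.43, adjusted p = 0.00991, and 0.0644 without control replicate 1). In cholesterol synthesis and uptake, 1 of 22 fell, Pmvk, phosphomevalonate kinase (-1.72, adjusted p = 0.0354), with 10 of 22 lower without overlap (13.4% of all genes) and a list median of -0.49. In fatty acid synthesis 1 of 20 fell, G6pdx, which supplies NADPH, at 1.01, 0.792 and 0.710 FPKM in shifted livers and at 3.82, 2.07 and 2.26 FPKM in control livers (log2 change -0.99, adjusted p = 0.000586). Of the 20, 6 were lower and 1 higher without overlap, with a list median of -0.32. Of 29 PPAR-alpha targets and ketogenesis genes 0 passed, with a median of -0.29 and a range of -1.89 to 0.64. Of the 29, 10 were lower and 2 higher without overlap. In glucose metabolism Pfkfb3, which makes the activator of phosphofructokinase, rose (0.56, adjusted p = 0.0365) and Ppp1r3c fell, of 17 tested. Pfkfb3 was low, at means of 1.31 FPKM in shifted and 0.561 FPKM in control livers. Of 15 insulin and feeding targets 1 rose, Trib1, a pseudokinase gene (0.70, adjusted p = 0.0356). The calls of Pmvk, Pfkfb3 and Trib1 ended in 5 of 16, 5 of 14 and 7 of 16 alternatives.

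The stress and signalling lists below held at most 1 called gene each, where 1.06% of all genes rose and 2.37% fell, and such a call says little of a list. Herpud1, a component of protein disposal at the endoplasmic reticulum, was the 1 of 22 unfolded protein response genes that rose (0.91, adjusted p = 0.0493). Hspb1, a small heat shock protein gene, was the 1 of 13 heat shock and cold-inducible genes that fell (-0.98, adjusted p = 0.0488). Stat5a, a mediator of growth hormone and prolactin signals, was the 1 of 14 genes of that axis that fell (-0.45, adjusted p = 0.049). In each of these 3 the adjusted p was close to the threshold, and the calls ended in 12, 13 and 12 of the alternatives. The medians of their lists were -0.05, -0.12 and 0.39, so that Herpud1 and Stat5a went against the median of their lists. Of the 14 genes of the growth hormone and prolactin axis, 11 were higher and 3 lower. No member passed among 24 ribosomal protein genes (median 0.18), 24 oxidative phosphorylation genes (median 0.03), 18 acute phase genes and 11 hepatocyte identity factors. Of the 40 lists, 21 held at least 1 called gene and 19 held 0.

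**Figure D5:**
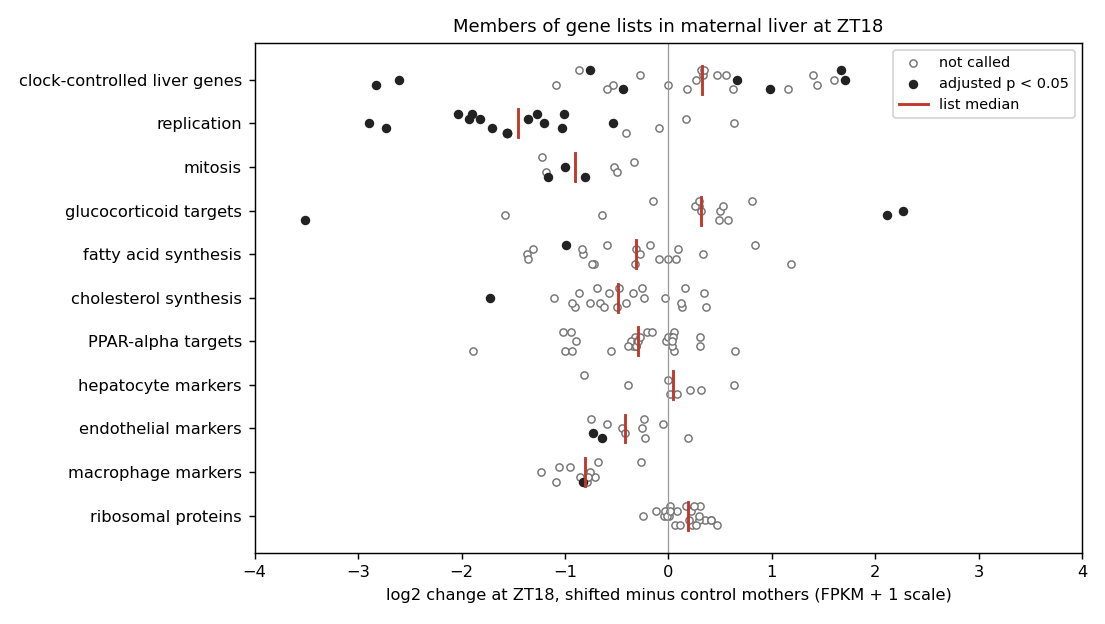
Log2 change at ZT18, shifted minus control mothers, of the tested members of 11 gene lists, with filled points for an adjusted p under 0.05, open points for the rest and a red bar at the list median. The replication list lies lowest with a median of -1.46 and 16 of 20 filled, and hepatocyte markers centre on 0.05.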

How the data were processed

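Per the submitters' processing notes, the authors aligned reads to mm10 with TopHat2 2.1.1 and deposited FPKM values from Cufflinks 2.2.1, which scale fragments by transcript length and library. Which annotation, filters and strand setting they used is not given here. Without counts the depth behind each value is unknown, and FPKM sums at ZT18 (561836 to 610572) are not depths. Each table listed 24883 entries. The 280 symbols that stood on several of them (817 entries) were dropped, so 24066 genes remained. Fetal and offspring libraries were not analysed here.

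Median-of-ratios factors over the 24 mother libraries (0.892 to 1.14 at ZT18) set the scale. A gene was tested where 3 or more of them reached 1 FPKM, which held for 10351. A model of log2(FPKM + 1) with the 8 combinations of schedule and time was fitted with limma 3.58.1 (R 4.3.3) and a variance trend. The first contrast was shifted minus control at ZT18. The second took from it the mean of the same differences at ZT0, ZT6 and ZT12. The threshold was a Benjamini-Hochberg adjusted p under 0.05 over all genes, and the test was tried on simulated data. Gene coordinates, GC content and length came from GENCODE (GRCm38), with a transcript for 9982 tested genes (96.4%). Promoter windows came from RefSeq (GRCm38.p6).

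The named genes were the tested clock genes, the 12 largest rises and falls with a mean of at least 5 FPKM and no overlap, the 3 called genes of smallest p of each list, and the 6 of smallest p each way in the second contrast. Genes without a proper name were not eligible, and some genes that the rule names are not reported here. Genes named outside this rule were Mcm2, Mcm4, Mcm10, Gmnn, Tyms, Ccne1, Pcna, Rrm1, Rrm2, Cdc45, Gins2, Chaf1a, Birc5, Cdc20, Leo1, Fbxo44, Hamp and Hamp2, and members of lists that were not tested. The libraries compared, the lists and the tests were chosen with earlier results of these data known. Alternatives were other pseudocounts, filters and scalings, the replicate number as a block, a spline correction for GC content and length, limma without the trend, a fit of 6 libraries, and leaving out each library in turn (16 for the comparison at ZT18, and 1 other filter added after the data were seen).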

Additional observations from a re-analysis of the deposited data

Results flagged for a closer look

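For the genes below, the difference between shifted and control mothers at ZT18 was not the same as the mean of the differences at ZT0, ZT6 and ZT12, by a limma contrast with an adjusted p under 0.05 over all genes. Each value is the log2 change at ZT18 minus that mean. Differences of opposite sign at the other times can cancel in the mean, so a value does not show that a difference was confined to ZT18. The contrast was tested for 10351 genes, of which 94 passed (15 higher and 79 lower at ZT18).

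Among replication genes the value was -2.80 for Mcm6, -2.60 for Mcm5, -2.0 for Mcm3, -1.84 for Mcm2, -1.70 for Mcm7 and -1.57 for Mcm4, with adjusted p between 4.31e-05 (Mcm5) and 0.000712 (Mcm4). It was -1.87 for Uhrf1, -1.65 for Prim1, -1.61 for Rrm2, -1.48 for Rrm1, -1.40 for Gins2, -1.31 for Chaf1a, -1.29 for Pcna and -0.966 for Cdc45. Of these replication genes, Mcm5, Uhrf1, Gins2, Chaf1a and Cdc45 passed the filter only through libraries of ZT18, where control livers are high. The cell cycle inhibitor gene Cdkn1a had -2.77 (adjusted p = 0.0303).

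Among clock genes it was -2.46 for Arntl, -1.79 for Cry1, -1.23 for Nfil3 and -0.945 for Npas2. It was 3.70 for Dbp, 2.33 for Nr1d2 and 2.28 for Ciart. For some of these the log2 changes at ZT0 and ZT6 were large and opposite. They were -1.54 and 2.0 for Arntl, -1.16 and 1.25 for Npas2, and 2.36 and -3.36 for Dbp. At ZT0 the log2 changes of these 3 genes thus had the same sign as at ZT18. By limma, Arntl and Npas2 passed at ZT0 (adjusted p = 0.0161 and 0.000324) and Dbp did not (adjusted p = 0.093). Cry1 had the opposite sign to ZT18 at both times, with 0.55 at ZT0 and 0.92 at ZT6.

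In genes of the clock-controlled list it was -2.72 for Ppp1r3c, -2.42 for Tubb2a, 1.64 for Coq10b and 0.951 for Gne. The remaining genes were Tubb2b (-1.95), Mt1 (1.94), Mt2 (1.84), Eva1a (0.824) and G6pdx (-0.909).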

How the results depend on the processing

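At ZT18, 355 genes were called. The count was 127 (54 higher, 73 lower) with a filter of 5 FPKM, 842 (44 higher, 798 lower) with values as deposited, and 105 (21 higher, 84 lower) in a fit of the 6 libraries of ZT18, where fewer samples set the spread. Leaving out 1 library gave 122 (without control replicate 1) to 540 (without shifted replicate 1). The other alternatives gave 281 to 499, with 281 where the 18 libraries of the other times chose the genes. For the second contrast 94 genes were called, 165 with no filter on low values and 29 with a filter of 5 FPKM, and leaving out 1 of the 24 libraries gave 36 (without control replicate 1 of ZT18) to 136 (without shifted replicate 3 of ZT0), with 59, 37 and 47 without shifted replicate 2 and control replicates 2 and 3 of ZT18. Whether the replicate numbers pair the samples is not stated. Same-numbered deviations at ZT18 correlated at -0.105, -0.114 and 0.0419, and only replicate 3 correlated best with its own number. With 3 libraries in each group these correlations cannot decide whether samples were paired. With the replicate number as a block, 317 and 72 genes were called.

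Of 48 called genes chosen by the rule, 0 changed direction in any of the 16 alternatives. Reversals were seen in 4 genes that were not called, and the cause was not tested. Bhlhe40 had 0.0505 with the GC and length correction, and 0.0505 with the block added, against -0.06. With 1 library left out, Bhlhe40 ranged from -0.33 to 0.17, Rora from -0.41 to 0.13, Gmnn from -0.19 to 0.076 and Tyms from -0.076 to 0.31. For shifted livers at ZT18 against control livers at ZT12, chosen after seeing the data, 0 genes were called, or 1 (without shifted replicate 2, or control replicate 2). Depth is unknown, so the precision of low FPKM values could not be set from counts.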

Other observations

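Hamp, which encodes the iron-limiting hormone hepcidin, and its near copy Hamp2 had high levels in shifted livers and did not pass the test, although Hamp passed in 4 of 16 alternatives. Hamp2 was at 2345, 3479 and 4801 FPKM in shifted mothers, against 1061, 406 and 831 FPKM in control mothers (log2 change 2.26, limma adjusted p = 0.0798). Hamp was at 145, 1537 and 1729 FPKM in shifted mothers, against 167, 6.06 and 44.0 FPKM in control mothers (log2 change 4.28, limma adjusted p = 0.0554), with shifted replicate 1 inside the control range. The copies could share reads. Pericentral hepatocyte markers summed to 2535, 2512 and 3013 FPKM in shifted mothers, against 1690, 1711 and 2146 FPKM in control mothers. The list as a whole did not move with this sum. Of its 7 tested members 0 passed, 4 were higher and 3 lower, and their median log2 change was 0.11. Without overlap, 2 were higher, where 11.6% of all genes were.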
